A study of Mus musculus with 3 samples.

Results

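The RNA described here came from NIH3T3 cells, a long-established fibroblast line derived from mouse embryos, that had received no stimulus in serum-free medium (the CTRL library). The members are the genes of the CTRL column, taken by symbol, and only their abundance was read. Of 15554 rows, 1 per protein coding gene reviewed in UniProt with few exceptions, 9236 (59.4%) were present at an FPKM of 1 or more. FPKM is fragments per kilobase of transcript and 1e6 mapped fragments, a level scaled for length and depth, and FPKM 1 was the line drawn between present and not present. CTRL is 1 of 3 libraries of the series. All 3 were made from cells kept for 24 h in serum-free IMDM and then changed to new serum-free medium for 24 h, with nothing added in CTRL, GDF15 at 100 ng/mL in the GDF15 library and TGF-β at 4 ng/mL in the TGF-β library. RNA of 3 samples was pooled in each treatment before the library was made, so that every group holds 1 library, no value has a replicate error and no test was run.

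Fibroblasts build and repair the matrix of connective tissue. They secrete fibrillar collagens and fibronectin, fix them with crosslinking enzymes, and read the matrix and their surroundings through integrins, receptor tyrosine kinases and receptors of the TGF-β family. TGF-β binds the type II receptor TGFBR2, which joins and activates the type I receptor TGFBR1, and SMAD2 and SMAD3 carry the signal to the nucleus together with SMAD4. GDF15 is a distant member of the same ligand family, and its known receptor is GFRAL, acting with RET and described mainly in neurons of the hindbrain. Removal of serum is a common way to lower proliferation before a stimulus.

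The levels fell into 2 broad bodies, a peak of rows around FPKM 10 and a tail of rows under 1. Of all rows, 3719 (23.9%) were listed at 0, 2567 lay between 0.001 and 1, and 32 lay above 0 but under 0.001. Among rows that were present, the median was FPKM 12.9, and over all rows it was 4.04. A level of 10 or more was reached by 5454 rows, 100 or more by 462 and 1000 or more by 31. The depth of CTRL was not given with the values. Low values of genes with 1 coding transcript stood at steps of whole fragments, and these steps placed the depth at about 18470000 fragments. At that depth FPKM 1 equals a median of 50.2 fragments over rows with a transcript length, and at least 17.6 fragments for 9 in 10 of them.

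**Figure D1:**
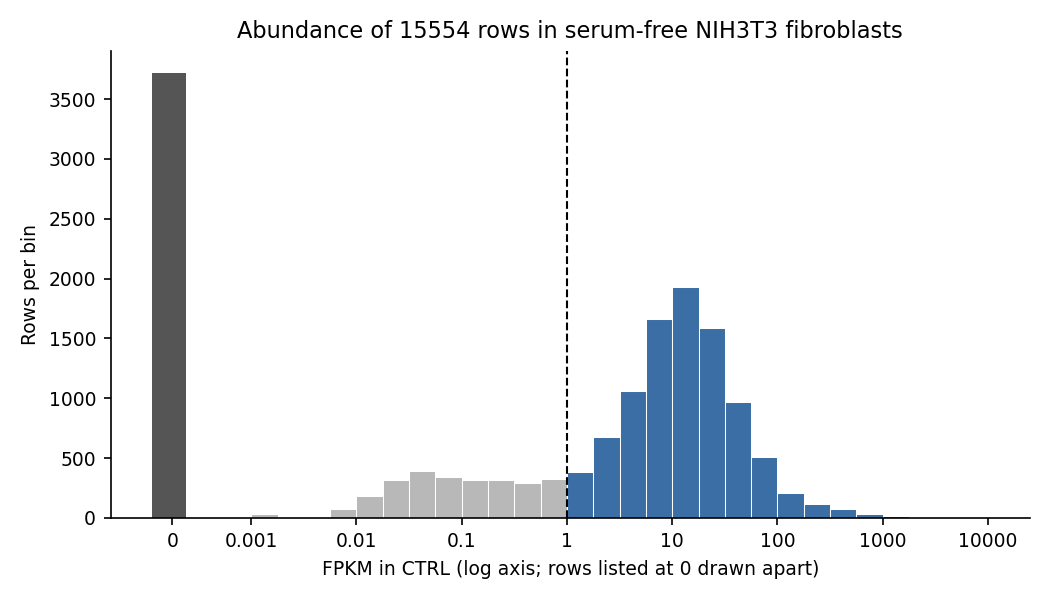
Number of rows (vertical axis) by FPKM in CTRL (horizontal log axis, 4 bins per factor of 10), with the 3719 rows listed at 0 in a bar of their own at the left. Blue bars are the 9236 rows at FPKM 1 or more, grey bars the rows above 0 and under 1, of which 32 lie under 0.001 and are drawn in the lowest bin, and the dashed line marks FPKM 1.

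Ribosomal protein genes were the most numerous of the listed classes among the 30 most abundant genes, but the 5 highest levels belonged to other genes. *Fth1*, the heavy chain of ferritin, had the highest level at FPKM 4031. It was followed by *S100a4*, a calcium-binding protein also called fibroblast-specific protein, at 3817, by *Fn1*, fibronectin, and *Col3a1*, the chain of type III collagen, both at 3738, and by *Eef1a1*, a translation elongation factor, at 3691. These 5 genes held 5.74% of the summed FPKM. The 10 most abundant genes held 9.04%, the 100 most abundant 30.6%, and 421 genes held 50% (the sum over all rows taken as 100%).

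Of the 30 most abundant genes, 14 encode ribosomal proteins, with *Rplp1* at 2519.9 and *Rpl41* at 2073 as the highest. Matrix genes contributed 5 of the 30, namely *Fn1*, *Col3a1*, *Col1a2* at 1233, *Sparc* at 1108 and *Col1a1* at 1103. *Sparc* encodes a collagen-binding glycoprotein, and *Col1a1* and *Col1a2* the chains of type I collagen. The other 11 were *Fth1*, *S100a4* and *Eef1a1*, the intermediate filament gene *Vim* at 2245, the galectin gene *Lgals1* at 2116, *S100a6* at 1976, *Tpt1* at 1865, the lysosomal protease gene *Ctsl* at 1772, the ferritin light chain gene *Ftl1* at 1653, *Eef2* at 1168, and *Gnb2l1*, which encodes the ribosome-bound scaffold RACK1, at 1111. All 30 were present in the GDF15 and TGF-β libraries too.

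**Figure D2:**
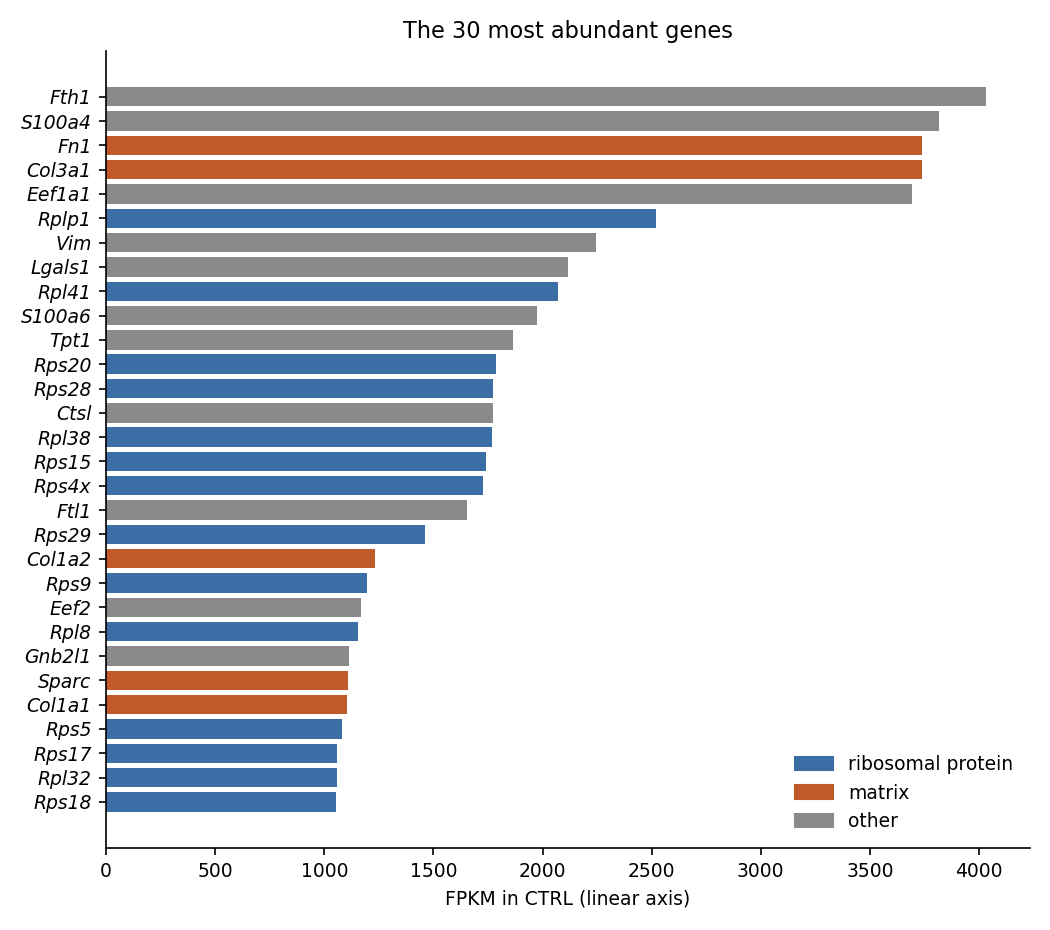
FPKM in CTRL (horizontal linear axis from 0) of the 30 most abundant genes, 1 bar per gene, coloured by ribosomal protein gene, matrix gene or other. The 5 longest bars run from 3691 to 4031, and 14 of the 30 bars are ribosomal protein genes.

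FPKM gives short and long transcripts the same weight, while fragments do not. By estimated fragments, computed with the longest coding transcript of each gene, *Fn1* came to 3.74% and *Col3a1* to 2.47% of the fragments summed over the rows of the table, and *Col1a2* and *Col1a1* to 0.784% and 0.78%. These 4 long matrix transcripts were among the 10 genes with most fragments. The order depends on that length, because a gene whose main transcript is shorter than its longest, such as *Rps20* with 3706 bases listed, is counted too high.

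The sequence around a RefSeq start site is shown for 4 mesenchymal genes among the 30 most abundant. It sets side by side windows with and without the letters TATAAA, the common form of the TATA box. This element fixes the start of transcription at many highly used promoters. The sequences are RefSeq promoters on GRCm38.p6, from 45 bases before the start site to 10 bases from it onward. Capitals mark these letters, which were searched from 40 to 16 bases before the start.
S100a4 (chr3:90603725-90603779, + strand): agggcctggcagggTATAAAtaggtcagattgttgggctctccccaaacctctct
Vim (chr2:13574266-13574320, + strand): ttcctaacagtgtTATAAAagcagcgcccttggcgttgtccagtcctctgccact
Col3a1 (chr1:45311493-45311547, + strand): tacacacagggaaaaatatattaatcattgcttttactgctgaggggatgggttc
Col1a2 (chr6:4505573-4505627, + strand): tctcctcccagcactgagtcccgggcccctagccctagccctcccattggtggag
In *S100a4* the motif began 31 bases and in *Vim* 32 bases before the start. The windows of *Col3a1* and *Col1a2* did not hold these exact letters, and variants of the TATA box were not searched. The gene coordinates used elsewhere here begin at 4504814 for *Col1a2* and 13573927 for *Vim*, before their windows. Which start is used in these cells was not tested. A window without the letters thus does not show that a gene lacks a TATA box. Of the 30 most abundant genes, 19 had a promoter entry, and *S100a4* and *Vim* were the 2 with the motif on the transcribed direction. Over all 32851 promoter entries it occurred in 1.99%. In the opposite direction it occurred in none of the 19 genes and in 0.618% of all promoter entries. Genes and promoter entries are unlike units, so these values cannot be set against each other. These matches describe letters in a window and not sites in use.

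The label of the cells was checked against markers. The 3 supplied markers of fibroblasts ranked 2 (*S100a4*), 4 (*Col3a1*) and 26 (*Col1a1*) by FPKM among all rows. *S100a4* (chr3:90603771-90606045, GRCm38) was at 3817 in CTRL, at 2529 with GDF15 and at 2942 with TGF-β. *Col3a1* (chr1:45311538-45349706) was at 3738, 4484 and 3092 in the same order. *Col1a1* (chr11:94936224-94953042) was at 1103, 1669 and 1902. Each of them was above 1000 in every library, and the label was met.

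A wider list of genes of fibroblasts and mesenchyme gave the same picture, with 22 of 25 members present against 59.4% of all rows, and a median of FPKM 128 against 4.04. The highest were *S100a4*, *Fn1*, *Col3a1*, *Vim* and *Col1a2*. Among surface markers, the stem cell antigen gene *Ly6a* was at 408, podoplanin (*Pdpn*) at 128, *Pdgfra* at 61.3, *Cd44* at 45.6 and *Thy1* at 35.4; these were chosen after their values were seen. The 3 members under 1 were *Cdh11*, a cadherin of mesenchyme, at 0.976, *Fap*, a surface protease of activated fibroblasts, at 0.0643, and *Lum*, the matrix proteoglycan lumican, listed at 0. For *Fap* the level equals about 3.03 fragments. For *Lum* 3 fragments would correspond to FPKM 0.0722, which is the level that could not have been told from 0.

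Of 98 markers of 10 other kinds of cells, 13 (13.3%) were present, against 59.4% of all rows. Of the 98, 6 reached FPKM 10 or more and 48 were listed at 0. No marker of endothelium (10 genes) or of pluripotent and germ cells (8 genes) was present. In endothelium the highest was *Esam* at 0.194, and the receptor gene *Kdr* was listed at 0. *Pou5f1*, *Nanog* and *Sox2*, which maintain pluripotency, were listed at 0.

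In 5 of the 10 lists a lone marker was present. In bulk RNA a low level in all cells and a high level in few of them, or fewer cells and less RNA per cell, cannot be told apart. In epithelium *Krt14*, a keratin of basal cells, was at 24 in CTRL, 48.2 with GDF15 and 135 with TGF-β, while its filament partner *Krt5* was listed at 0 in CTRL, *Epcam* and *Krt18* were listed at 0 and *Cdh1*, E-cadherin, was at 0.685. In cartilage the transcription factor gene *Sox9* was at 68, but the matrix genes *Col2a1* and *Acan*, which SOX9 is known to drive in chondrocytes, were at 0.0565 and 0.00747. In bone *Spp1*, osteopontin, was at 556, *Runx2* at 6.77 and *Bglap* at 6.38, while *Alpl* was at 0.0231 and *Ibsp* and *Sp7* were listed at 0.

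Of the fat cell list only *Lpl*, lipoprotein lipase, was present, at 43.5. *Pparg*, *Cebpa*, *Adipoq* and *Plin1* were listed at 0. Of the blood list the lysozyme gene *Lyz2* was at 5.29 and *Cd68* at 1.66, and *Ptprc*, the leukocyte antigen CD45, was at 0.148. Of the neural list, *Sox10*, a factor of glia, was at 0.0213 and *Olig2* was listed at 0.

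Markers of muscle were also split. Of the smooth muscle and myofibroblast list 3 of 9 were present, smoothelin (*Smtn*) at 48.4, *Acta2*, α-smooth muscle actin, at 20.4 and *Tagln* at 2.2. *Cnn1*, *Myh11* and *Des* were at 0.15, 0.27 and 0.22, and the cofactor gene *Myocd* was listed at 0. Skeletal actin, *Acta1*, was at 8.75, while *Myod1*, *Myog* and *Myf5* were listed at 0. The coding sequences of the actin genes are nearly identical, so that reads of *Acta1* and *Acta2* may have been shared with other actins.

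**Figure D3:**
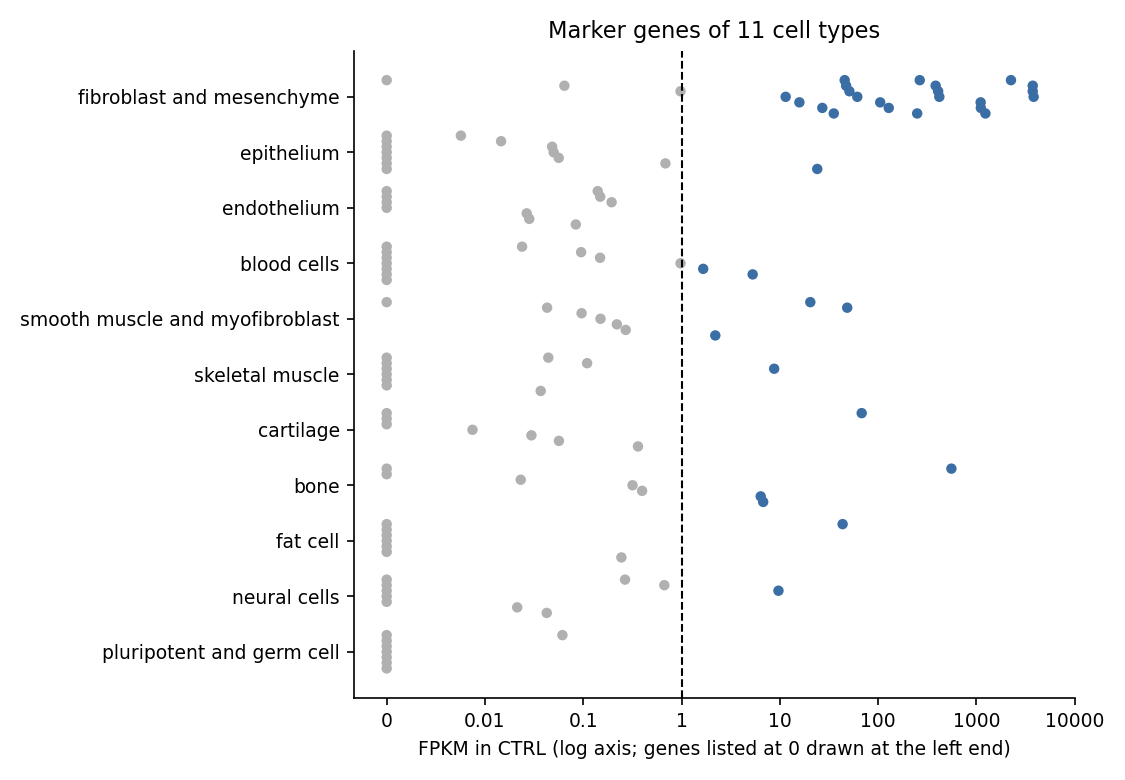
FPKM in CTRL (horizontal log axis, with genes listed at 0 at the left end) of marker genes of 11 kinds of cells, 1 point per gene, blue at FPKM 1 or more and grey under it, spread vertically within a row only for sight. The row of fibroblast and mesenchyme has 22 of 25 points to the right of the dashed line at FPKM 1, and the other 10 rows have 13 of 98.

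Matrix genes were 171 in all, of which 93 (54.4%) were present. They held 6.05% of the summed FPKM, more than receptors (0.654%), secreted factors (0.631%) and transcription factors (0.761%). The share that was present was near that of all rows, and 37 of the 171 were listed at 0, against 23.9% of all rows.

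Of 37 collagen chains, 19 (51.4%) were present, against 59.4% of all rows, and 6 were listed at 0. Behind the chains of types I and III came *Col6a1* at 817 and *Col6a2* at 550, which form microfibrils around cells, then *Col5a2* at 283, a regulator of fibril width, and the basement membrane chains *Col4a1* at 197 and *Col4a2* at 171. *Col16a1* was at 179 and *Col5a1* at 99. Of collagens known from cartilage, *Col11a1* was at 3.72 and *Col11a2* at 1.41, *Col2a1* and *Col9a2* were at 0.0565 and 0.063, and *Col9a1* was listed at 0. *Col14a1* and *Col15a1*, which many fibroblasts of tissue express, were at 0.0684 and 0.0104.

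Among small leucine-rich proteoglycans, which bind collagen fibrils, 5 of 14 (35.7%) were present, against 59.4% of all rows. *Dcn*, decorin, was at 419 and *Bgn*, biglycan, at 290, followed by *Prelp* at 86.8, *Ogn* at 12.6 and *Aspn* at 1.29. *Fmod*, fibromodulin, was at 0.0402, and lumican and keratocan (*Kera*) were listed at 0. Of 20 other proteoglycans 6 were present, with the syndecan gene *Sdc2* at 137 and perlecan (*Hspg2*) at 121 as the highest. Of the glypicans, *Gpc1* was at 85.4, whereas *Gpc2*, *Gpc3*, *Gpc4*, *Gpc5* and *Gpc6* were all listed at 0.

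Of 17 elastic fibre genes 13 (76.5%) were present, against 59.4% of all rows. They were led by *Efemp1* at 531, *Fbln2* at 257, *Efemp2* at 122 and the fibrillin gene *Fbn1* at 95.7. The 4 latent TGF-β binding protein genes were present, *Ltbp3* at 51.8, *Ltbp4* at 49.2, *Ltbp2* at 19.4 and *Ltbp1* at 16.7. *Eln* itself, elastin, was at 1.79, and *Fbln1* and *Fbn2* were listed at 0.

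Of 22 adhesive and matricellular glycoproteins 17 (77.3%) were present, against 59.4% of all rows. *Fn1*, *Sparc*, *Spp1*, *Thbs2* at 141 and nidogen (*Nid1*) at 101 were the highest. *Tgfbi*, named for its induction by TGF-β, was at 83.1, the matricellular genes *Ctgf* at 9.03, *Thbs1* at 6.37 and *Cyr61* at 3.37. *Tnc*, tenascin C, was at 1.07 and *Postn*, periostin, at 0.73. Of 11 laminin chains 4 were present, *Lamb1* at 77.1, *Lamb2* at 45.1, *Lamc1* at 44.3 and *Lama4* at 25.5, which together cover an α, a β and a γ chain.

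Of 25 genes for collagen processing and crosslinking 20 (80%) were present, against 59.4% of all rows. This list had a median of FPKM 35.5. *Pcolce*, an enhancer of procollagen cleavage, was at 419, *P4hb*, a subunit of prolyl hydroxylase, at 384, the collagen chaperone gene *Serpinh1* at 265 and *Ppib* at 250. *Lox*, lysyl oxidase, was at 78, and *Loxl2* was listed at 0. Of 21 matrix metalloproteinases 6 were present, with *Mmp2* at 252 and its membrane-bound activator *Mmp14* at 238 far above *Mmp11* at 41.9. *Mmp3* and *Mmp13* were at 0.1 and 0.0216. The inhibitors *Timp2*, *Timp3* and *Timp1* were at 370, 161 and 105, and *Timp4* was listed at 0.

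Receptors for both stimuli of the study were read next. Of 12 receptors of the TGF-β family 8 (66.7%) were present in CTRL, near the 59.4% of all rows, and the same 8 in the other libraries. *Tgfbr2* (chr9:116084293-116175360, minus strand), the type II receptor of TGF-β, was at 14.4 in CTRL, 17.2 with GDF15 and 15.7 with TGF-β. *Tgfbr1* (chr4:47353222-47414931, plus strand), the type I receptor, was at 5.08, 7.04 and 6.56 in the same order. Both parts of the TGF-β receptor were therefore above FPKM 1 in each library.

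The BMP receptors *Acvr1* at 17.1, *Bmpr1a* at 16.5 and *Bmpr2* at 16.2 were as high as *Tgfbr2*, and the activin receptors *Acvr1b* at 6.38, *Acvr2a* at 3.6 and *Acvr2b* at 3.49 were lower. *Amhr2* was at 0.582, and *Acvrl1*, a receptor of endothelium, at 0.0156. *Bmpr1b* was listed at 0. Among 8 coreceptors *Rgma* at 90 and *Rgmb* at 40.1, which bind BMP ligands, and *Tgfbr3*, betaglycan, at 45.7 were present. *Eng*, endoglin, was at 0.951, with a 95% Poisson interval of 0.72 to 1.23 that covers FPKM 1.

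*Gfral* (chr9:76164102-76213657, minus strand), the receptor of GDF15, was at 0.142 in CTRL, 0.195 with GDF15 and 0.0895 with TGF-β. The CTRL level equals about 4.94 fragments, with an interval of 0.0458 to 0.334 on the FPKM scale. *Ret* (chr6:118151745-118197718, minus strand), the kinase that signals with GFRAL, was at 0.015 in CTRL and listed at 0 in both stimulated libraries, and the CTRL level equals about 1.45 fragments, under the floor of 3. These levels were under FPKM 1 in every library, and their intervals cover counting error only. Of the related coreceptors *Gfra2* was at 1.41, *Gfra1* was at 0.495, and *Gfra3* and *Gfra4* were listed at 0. Of this list of 6 genes *Gfra2* alone was present in CTRL, and in TGF-β it was at 0.498.

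Of 33 ligand genes of the TGF-β family 6 (18.2%) were present in CTRL and 20 were listed at 0, against 59.4% and 23.9% of all rows. *Tgfb1* was at 28.7 in CTRL, 23.1 with GDF15 and 26.2 with TGF-β, and *Tgfb3* at 20.9, 21.1 and 20. *Tgfb2* was at 0.224, 0.152 and 0.211. Of the 3 TGF-β isoforms, *Tgfb1* and *Tgfb3* were thus present in all libraries and *Tgfb2* in none.

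The other ligands at FPKM 1 or more were *Inha*, an inhibin subunit, at 15.1, *Gdf11* at 7.74, *Inhba*, the activin A subunit, at 3.95, and *Gdf9* at 1.1. *Gdf15* (chr8:70629393-70632456, minus strand) was at 0.121 in CTRL, 0.104 with GDF15 and 0.0636 with TGF-β, which in CTRL equals about 3.02 fragments. *Bmp2*, *Bmp4* and *Nodal* were listed at 0. The antagonists *Nbl1* and *Twsg1*, at 33.7 and 28.8, were the highest of 24 genes for inhibitors of BMP, activin and Wnt, of which 6 were present, and *Grem1*, *Nog* and *Dkk1* were listed at 0.

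Downstream of these receptors, 6 of 8 Smad genes (75%) were present, against 59.4% of all rows. *Smad4* was at 24.8, *Smad3* at 15.9, *Smad5* at 12.9, *Smad2* at 6.93 and *Smad1* at 6.8. Of the inhibitory members *Smad7* was at 2.58 and *Smad6* at 0.714. The Id genes, known early targets of BMP signals, were split, with *Id1* at 19.5 and *Id3* at 17.7 but *Id2* at 0.8 and *Id4* at 0.733.

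**Figure D4:**
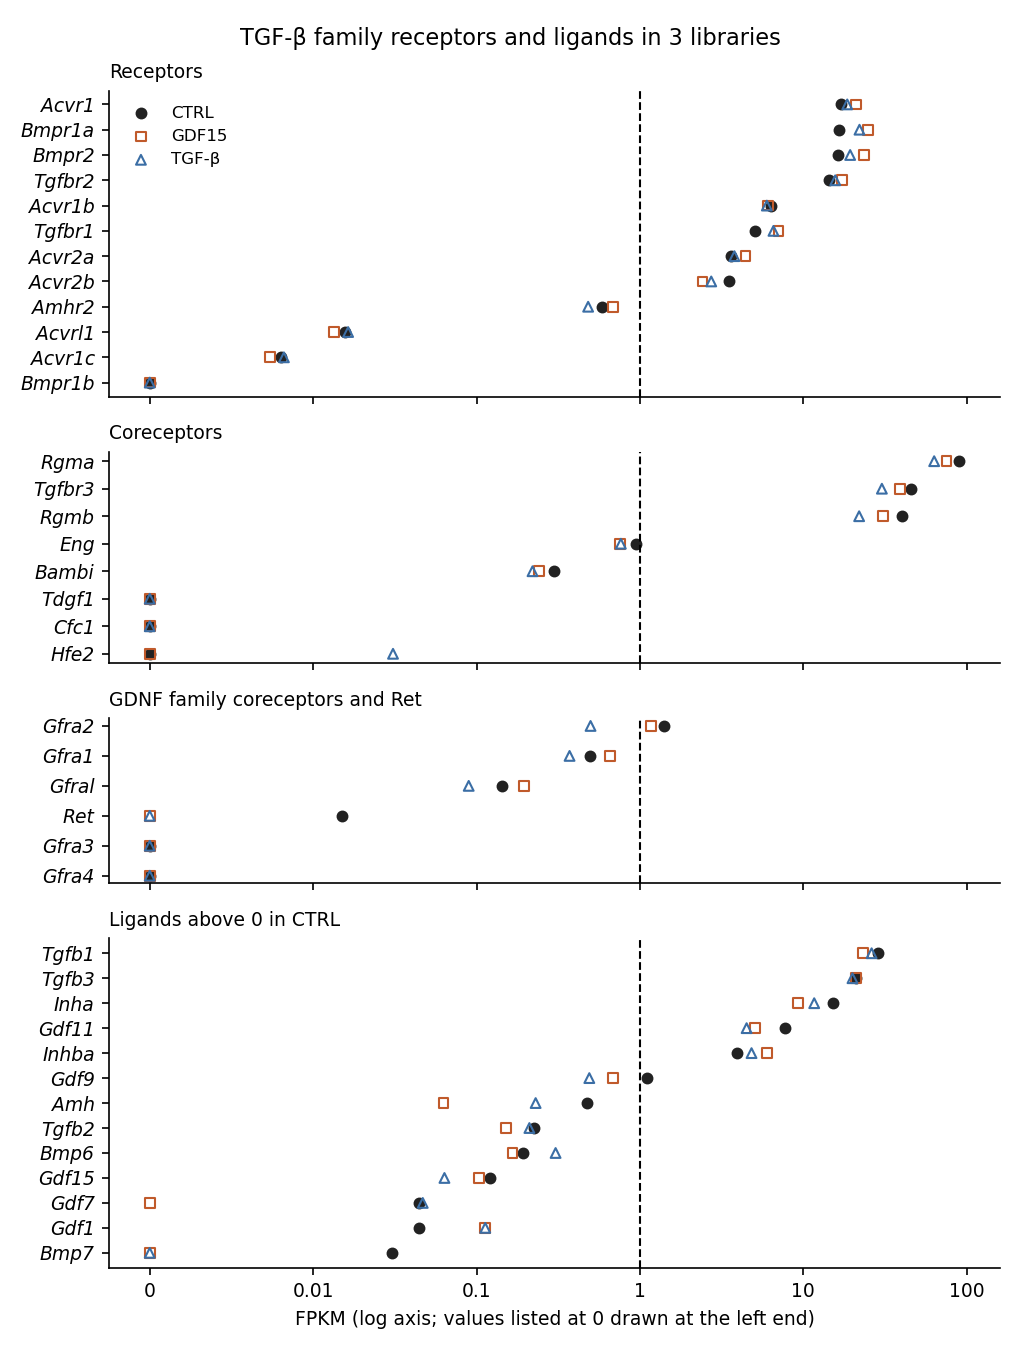
FPKM (horizontal log axis, with values listed at 0 at the left end) of TGF-β family receptors, coreceptors, GDNF family coreceptors with *Ret*, and the ligands above 0 in CTRL, 1 row per gene, with filled circles for CTRL, squares for GDF15 and triangles for TGF-β. The symbols of *Tgfbr1* and *Tgfbr2* lie to the right of the dashed line at FPKM 1 in all 3 libraries, and those of *Gfral*, *Ret* and *Gdf15* lie to its left.

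Of 58 receptor tyrosine kinases 25 (43.1%) were present and 18 were listed at 0, against 59.4% and 23.9% of all rows. The highest were *Axl*, a receptor of GAS6, at 134, *Fgfr1* at 107, the collagen receptor *Ddr2* at 105, *Pdgfra* at 61.3 and *Pdgfrb* at 47.2. *Igf1r* was at 15.9, *Met* at 7.1 and *Egfr* at 4.24. The receptors of other lineages *Kit*, *Csf1r* and *Flt3* (blood), *Kdr* and *Tie1* (endothelium) and *Ntrk2* (neurons) were listed at 0, while *Flt1*, also a receptor of endothelium, was present at 2.16 and *Tek* was at 0.084. Of the other FGF receptors, *Fgfr2* was at 1.66, and *Fgfr3* and *Fgfr4* were at 0.0711 and 0.0726.

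Of 23 integrin subunits 12 (52.2%) were present, against 59.4% of all rows. *Itgb1*, the β subunit of most matrix receptors, was at 140, *Itga5*, its partner in the fibronectin receptor, at 77.1, *Itgb5* at 56.3 and *Itgav* at 44.1, partners in a vitronectin receptor, and *Itga6*, a laminin receptor subunit, at 44. The collagen receptor subunits were low, *Itga11* at 1.08, *Itga1* at 0.647 and *Itga2* at 0.0931. For *Itga11* the value in CTRL was the lowest of the 3, with 5.2 under GDF15 and 7.43 under TGF-β.

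Of 12 Wnt receptor genes 8 were present and of 7 Notch and Hedgehog receptors 5, shares near the 59.4% of all rows, *Fzd1* at 36.4, *Lrp5* at 23.1, *Fzd2* at 21.9, *Lrp6* at 11.3 and *Fzd7* at 9.19 being the highest Wnt receptors. *Smo*, the transducer of Hedgehog signals, was at 23.5 and *Ptch1* at 2.49. *Notch2* was at 14.4, *Notch1* at 7.05 and *Notch4* at 5.87, whereas *Notch3*, the receptor of mural cells, was at 0.0621. The ligand side was narrower, with *Wnt5a* at 7.45 and *Wnt9a* at 4.13 the only 2 of 19 Wnt genes present and 13 listed at 0.

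Of 23 cytokine receptors 16 (69.6%) were present, against 59.4% of all rows. *Ghr*, the growth hormone receptor, was at 163, the highest of all 197 receptor genes. The shared chain of IL-6 type receptors, *Il6st*, was at 74.5, *Tnfrsf1a* at 74, *Tnfrsf12a* at 43.7 and *Ifngr1* at 23.5. Of 12 Toll-like receptors *Tlr4* at 18.8, *Tlr2* at 4.41, *Tlr3* at 3.97 and *Tlr6* at 2.72 were present. Of 22 chemokine receptors only the scavenger *Cxcr7* was present, at 30.7, and *Cxcr4* was at 0.0332. *Lpar1*, at 50.3, and *S1pr2*, at 31.7, led the receptors of lysophospholipids, lipids that serum supplies.

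Secreted factors were the group with the lowest share present, 61 of 252 (24.2%), against 59.4% of all rows. Of the 252, 128 were listed at 0, against 23.9% of all rows. *Igfbp6*, a binding protein that favours IGF2, was the highest at 375, followed by *Grn*, progranulin, at 253, *Ccl2* at 123, and the prolactin family genes *Prl2c2* at 120 and *Prl2c3* at 105. *Prl2c2* is known as proliferin, a growth-associated hormone-like protein first found in mouse fibroblast lines. *Prl2c2* and *Prl2c3* are near copies of each other, and how reads were divided between them is uncertain. The other members of the prolactin family were at 0.155 or lower, and 14 of 19 were listed at 0.

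Of 9 PDGF and VEGF genes 5 were present, and of 26 other growth factors 12 (46.2%), against 59.4% of all rows. *Hdgf* was at 83.9, *Kitl*, stem cell factor, at 73.7, pleiotrophin (*Ptn*) at 71 and *Csf1*, which acts on macrophages, at 48.2. *Vegfb* was at 56.9, *Figf*, which encodes VEGF-D, at 40.1, *Pdgfa* at 28.2 and *Vegfa* at 27, while *Pdgfb* was listed at 0. Of 22 FGF genes *Fgf7*, known as keratinocyte growth factor, was at 9.26, *Fgf10* at 2.84 and *Fgf2* at 2.39, and 14 were listed at 0. *Hgf* was at 0.188.

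The insulin-like factors were uneven. *Igf2* was at 10.4, but *Igf1*, common in tissue fibroblasts, was at 0.00787. The binding protein genes *Igfbp6*, *Igfbp4* at 102 and *Igfbp7* at 18.9 were present, *Igfbp5* was at 0.00945, and *Igfbp2* and *Igfbp3* were listed at 0. Of 10 EGF family ligands 3 (30%) were present, against 59.4% of all rows, *Btc* at 14, *Ereg* at 8.75 and *Hbegf* at 5.8. Of the 10, 4 were listed at 0.

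Of 36 chemokines 8 (22.2%) were present, against 59.4% of all rows. The monocyte attractants *Ccl2* and *Ccl7*, neighbours in a gene cluster, were at 123 and 71.4, and the next, *Ccl8*, was at 5.04. *Cxcl12*, a stromal chemokine, was at 2.72. Of 43 interleukins and related cytokines 10 were present, led by *Clcf1* at 61.5, a ligand of the CNTF receptor, *Il34* at 19.1, *Il18* at 12.7 and *Tslp* at 10.7. The inflammatory cytokines *Il6*, *Il1a* and *Tnf* were at 0.0604, 0.0408 and 0.0378, and *Il1b* was listed at 0.

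Of 344 transcription factors 157 (45.6%) were present and 126 were listed at 0, against 59.4% and 23.9% of all rows. The highest of them were *Jun* at 94.4, *Klf4* at 85, *Nfix* at 82.6, *Osr1* at 68.9 and *Sox9* at 68. Of 21 mesenchymal factors 15 were present, with *Osr1*, *Prrx1* at 51, *Snai2* at 43.2, *Prrx2* at 30.4 and *Zeb1* at 25.9 as the highest. *Tcf21*, *Meox1*, *Meox2*, *Msx1* and *Msx2*, also factors of mesenchyme, were listed at 0.

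Of 48 master regulators of other lineages 6 were present, a lower share (12.5%) than among all rows (59.4%). They were *Sox9*, *Ebf1*, a factor of B cells and of fat precursors, at 27.7, *Gata4*, a factor of heart and gut mesoderm, at 10.9, *Runx2* at 6.77, the heart factor *Nkx2-5* at 3.8 and *Sox6* at 2.52. Regulators of muscle, fat, liver, gut and pancreas such as *Myod1*, *Pparg*, *Hnf4a*, *Cdx2* and *Pdx1* were listed at 0. The call of each of the 48 genes was the same in all 3 libraries.

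Hox genes, which record position along the body axis, were partly present, 20 of 39 (51.3%), near the 59.4% of all rows. Of 22 genes of paralogue groups 3 to 9 there were 17 present, of 12 genes of groups 10 to 13 there was 1, and of 5 genes of groups 1 and 2 there were 2. The highest were *Hoxd8* at 29.2, *Hoxb9* at 19.4, *Hoxd4* at 14.9, *Hoxd9* at 12.9 and *Hoxd3* at 9.02. By cluster, 7 of 11 genes were present in *Hoxa*, 7 of 10 in *Hoxb*, 2 of 9 in *Hoxc* and 4 of 9 in *Hoxd*. Of groups 10 to 13, 10 of the 12 genes were listed at 0, *Hoxa10* was at 0.846 and *Hoxb13* at 1.01. Hox transcripts overlap within a cluster, which can mix the reads of neighbours.

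**Figure D5:**
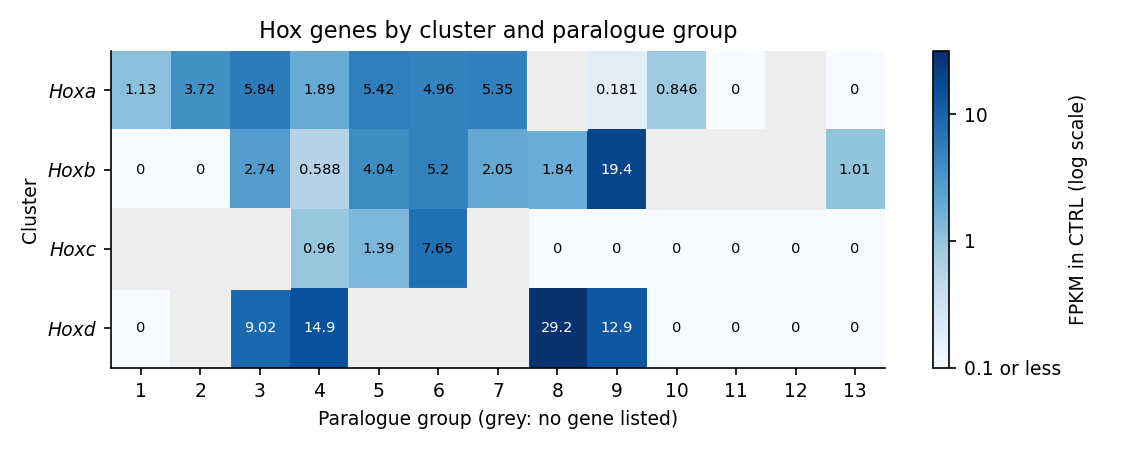
FPKM in CTRL of 39 Hox genes by cluster (rows) and paralogue group (columns), written in each cell and shaded on a log scale, with grey where no gene is listed. Most of the shaded cells lie in groups 3 to 9, and the right of the grid, groups 10 to 13, holds values of 1.01 or lower, of which 10 of 12 are 0.

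Other developmental families were present in part. Of 42 Fox genes 18 (42.9%) were present, against 59.4% of all rows, among them *Foxj3* at 21.7 and *Foxo4* at 15.8. Of 15 Tbx genes 5 were present, *Tbx15* at 16.7, *Tbx18* at 12, *Tbx4* at 6.35, *Tbx3* at 5.62 and *Tbx6* at 1.8. Of 9 Pax genes *Pax3* at 4.93 and *Pax9* at 4.17 were present, and the other 7 were listed at 0. *Lhx6* was at 4.07.

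All 4 Tead genes, partners of YAP, were present, *Tead2* at 41.3 being the highest, and so were all 4 Nfi genes. Of 7 Stat genes 6 were present, with *Stat6* at 50.8 and *Stat3* at 41.5, and *Stat4* was at 0.0577. Of 17 Klf genes 11 (64.7%) were present, near the 59.4% of all rows, *Klf4*, *Klf6* at 43.8 and *Klf3* at 41.2 leading. In the AP-1 and Egr list 11 of 16 were present, *Jun*, *Fosl2* at 41.6, *Jund* at 37.5 and *Egr1* at 27.4 leading, while *Fos*, an immediate early gene induced by serum, was at 0.734 and *Fosb* at 1.12.

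Of 48 nuclear receptors 20 (41.7%) were present, against 59.4% of all rows. *Rarg*, a retinoic acid receptor, was at 57.4, *Thra*, a thyroid hormone receptor, at 56.3, *Nr1h2* at 39.1, the clock component *Nr1d1* at 31.7 and the glucocorticoid receptor *Nr3c1* at 29. *Esr1*, *Esr2* and *Pgr*, the receptors of estrogen and progesterone, were listed at 0. Paralogues differed widely, with *Rara* at 17.4 and *Rarb* at 0.0208, and *Ppard* at 20.3 beside *Pparg* at 0.

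Genes of DNA replication and mitosis were present throughout, against 59.4% of all rows. All 18 genes of DNA replication were present, with a median of FPKM 13.6, *Pcna* at 65.3 and *Mcm4* at 19 among the highest and *Cdc6* at 1.94 the lowest. All 15 genes of mitosis were present, with a median of 14.5, from *Birc5* at 37.8, *Top2a* at 34.8 and *Cdc20* at 32.8 down to *Ccnb2* at 5.31. The level of these genes in cells with serum was not analysed here, so that no lowering can be read from them.

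Of the G1 cyclins and inhibitors 10 of 13 (76.9%) were present, against 59.4% of all rows. *Cdkn1a*, the inhibitor p21, was the highest at 240, followed by *Cdk4* at 199 and *Ccnd1* at 85.8. *Cdkn2a* and *Cdkn2b*, neighbouring tumour suppressor genes, and *Cdkn1c* were listed at 0. Of 8 genes of the Y chromosome none was present, *Uty* was at 0.0106 and the other 7 were listed at 0.

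Among genes of general supply, 80 of 83 ribosomal protein genes were present, against 59.4% of all rows. Together they held 15.2% of the summed FPKM. The low ones were *Rpl29* at 0.821, *Rpl26* at 9.57e-05 and *Rpl10l*, a gene of the testis, listed at 0. Of glycolytic genes, *Eno1* was at 2.46, under the median of 56.4 of its list, and *Gapdh* at 46.9 was near it, beside *Aldoa* at 484, *Pkm2* at 362 and *Pgk1* at 235. *Eno1* and *Gapdh* were chosen after their values were seen. Ribosomal protein and glycolytic genes have many processed copies in the mouse genome, and reads shared with a copy could have been assigned away from them, which was not tested. Cytoplasmic actins *Actb* and *Actg1* were at 690 and 665.

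Values close to the line decide single calls. Among the receptor, secreted factor and transcription factor genes, the 4 nearest above FPKM 1 were *Hoxb13* at 1.01, *Itga11* at 1.08, *Gdf9* at 1.1 and *Fzd3* at 1.12. The 4 nearest below it were *Hoxc4* at 0.96, *Fzd8* and *Eng*, both at 0.951, and *Thrb* at 0.922. The interval of each of these 8 covered FPKM 1. Of the 228 rows between 0.8 and 1.2, 118 had the same call in all 3 libraries.

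The calls were compared with those in the stimulated libraries. Of the 9236 rows present in CTRL, 9092 (98.4%) were present in all 3, 66 were present in CTRL alone, and 53 were under 1 in CTRL and present in both others. None of the 3719 rows at 0 in CTRL reached FPKM 1 in another library, and 2823 were at 0 in all 3. Of the rows at 2 or more in CTRL 10 were under 1 in another library, and no row above 3.22 in CTRL changed its call. Of the 2475 rows above 0 and under 0.8 in CTRL, 66 reached FPKM 1 in another library, 6 of them from under 0.1. An example chosen after its values were seen is *Mfap4*, a microfibril-associated gene, at 0.0816 in CTRL, 3.43 with GDF15 and 4.53 with TGF-β. The libraries share no replicate, and these counts are a description.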

How the data were processed

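Gene expression was read from 1 table with 1 FPKM column per library. Per the labels and the methods of the study, stranded mRNA libraries were sequenced as single reads of 50 bases. The submitters' processing notes name TopHat 1.3.2, Bowtie 0.12.9, Cufflinks 2.0.2 and mm10; the annotation and strand setting are not given in the sources used here. The authors calculated the FPKM that they deposited and kept genes reviewed in UniProt; the deposited values were used unchanged. Present means FPKM of at least 1. For 26 symbols in 67 rows, the highest row was used.

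The members and gene lists were chosen with earlier results of these data known. Symbols of the lists, or RefSeq synonyms of them, were looked up in the table. Named genes are the 30 most abundant, up to 5 highest per list, defining members under FPKM 1, receptors and ligands of both stimuli, and the 8 nearest to FPKM 1; members named beyond these were chosen after their values were seen. Some list members are not reported here.

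Coordinates and the longest coding transcript are those of GENCODE M21 on GRCm38, perhaps not the annotation the authors used; 15463 rows had an entry, 749 of them under an older symbol. Depth was estimated from 549 genes with 1 coding transcript over 800 bases and FPKM under 0.2, with FPKM times length less 199 bases (for fragments of 200 bases) placed on whole fragments; 72.7% lay within 0.1 of a whole number. Estimates were 18470000, 21520000 and 17610000 fragments for CTRL, GDF15 and TGF-β. Intervals are exact Poisson intervals at 95% on estimated fragments and cover counting error only; the floor is 3 fragments. The estimate was tested on simulated data. The cell lines' secretome, tissue and serum data were not analysed here. Python 3.11.15, pandas 2.3.3, numpy 2.4.6, scipy 1.17.1 and matplotlib 3.10.9 were used.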

Additional observations from a re-analysis of the deposited data

How the results depend on the processing

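The count of rows present was 9633 at FPKM 0.5, 8729 at FPKM 2, 9829 with values rescaled to sum to 1e6, and 11835 with every row above 0, against 9236. Of 1283 genes in the lists, 633 were present, and 582 to 895 under the same settings, or 634 with rows of 1 symbol summed. All of these lay within 1.5 times the value reported. The share of the 10 most abundant genes was 12.2% by estimated fragments, 10.3% without ribosomal protein genes and 9.06% without rows under FPKM 1, against 9.04%. That of the 100 most abundant was 25.1%, 26.1% and 30.7%, against 30.6%. The full transcript length gave a depth of 16870000 fragments, with 54.7% of low values near whole numbers; this setting was chosen after seeing the data. With every row above 0 counted as present, cell type markers went from 35 to 74, receptors from 91 to 147 and secreted factors from 61 to 124. A comparison of CpG content of promoters across abundance classes was planned and is void, because only 77.9% of rows, under the 80% asked for, had a promoter entry, so its alternatives were not run. No paired analysis was possible because no group holds more than 1 library, made of pooled RNA; no replicate could be left out either.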

Other observations

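Several families outside the lists, chosen after their values were seen, were listed at 0 nearly throughout, against 23.9% of all rows. Of 80 olfactory receptors 77 were listed at 0 and the highest, *Olfr18*, was at FPKM 0.0561. All 32 bitter taste receptors, 24 keratin-associated proteins, 46 defensins and 11 major urinary proteins were listed at 0. Of 71 potassium channel genes 4 were present, against 59.4% of all rows, led by *Kcnn4*, a calcium-activated channel, at 25.4. Of 60 cytochrome P450 genes 9 were present, the highest being *Cyp51*, an enzyme of sterol synthesis, at 59.3. At the other end, all 76 genes of mitochondrial ribosomal proteins, 17 of ATP synthase, 13 of RNA polymerase II and 29 of vacuolar sorting were present, with medians of FPKM 22.2, 163, 29.7 and 15.3. Of 40 proteasome subunit genes 37 were present and 2 were listed at 0, and of 37 complex I subunit genes 35 were present.

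Some single genes outside the lists, also chosen after their values were seen, stood high. The metallothionein genes *Mt1* and *Mt2*, which bind zinc and copper, were at 633 and 450. *B2m*, the light chain of MHC class I, was at 663 and *H2-D1* at 178. *Cd34*, known as a surface antigen of blood progenitors and of many stromal cells, was at 362 while *Ptprc* was at 0.148. *Cst3*, a secreted inhibitor of cathepsins, was at 680 beside *Ctsl* at 1772.

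Of the 32 rows above 0 and under 0.001 in CTRL, some held genes with near copies. *Lgals6* was at 8.41e-05 in CTRL, 1.43 with GDF15 and 1.05 with TGF-β, and *Raet1b* at 0.000567, 1.02 and 2.04. *Ndufs5*, a subunit of complex I, was at 4.76e-05 in CTRL and under 0.0001 in the other libraries.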
